A study of Mus musculus with 2 samples.

Results

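Forkhead genes encode transcription factors that share a winged-helix DNA-binding domain and are grouped into subfamilies by letter. They were chosen here by gene symbol, as every symbol made of Fox, a subfamily letter from a to s, and a number, and 44 of the 22072 symbols in the deposited tables met this. RNA of micro-dissected mouse embryonic tongue at embryonic day 12, on a mixed background, had been sequenced from 2 genotypes with 1 library each. The mutant library (Osr1f/-; Wnt1cre) came from tongues with a conditional allele of Osr1 over a null allele and a Cre transgene driven by Wnt1. The control library (Osr1f/+) came from tongues with the conditional allele beside a wild-type allele, and its label names no Cre. Both genotypes therefore carried the conditional allele, and each library was made from pooled tongues, 3 pairs of mutant and control samples in all. Wnt1-Cre acts in the neural crest lineage, so in the mutant the muscle, epithelium, endothelium and blood, which arise elsewhere, kept the conditional allele and carried the null allele. With 1 library per genotype no test between the genotypes was possible. Each ratio below compares 2 libraries and carries a 95% counting interval that holds no variation between embryos.

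In craniofacial mesenchyme, FoxC, FoxD and FoxF genes are known as patterned regulators of the facial prominences, and several of them respond to hedgehog signals from the epithelium. FoxA, FoxE and FoxQ genes are known from endoderm and surface epithelium, and FoxD3 from early neural crest and its glial descendants. FoxK, FoxJ, FoxN, FoxO and FoxP genes are widely used regulators of metabolism, growth and differentiation, and FoxM1 drives the genes of mitosis. In bulk tissue, fewer cells of a type and less RNA per cell cannot be told apart.

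The promoters of Foxd1, Foxd2 and Foxc1 are shown because these were the genes with a mean of at least 5 FPKM that differed by at least 1.3-fold. The sequences are RefSeq windows on GRCm38.p6, from 250 bases before to 50 bases after the annotated start, and capitals mark CpG dinucleotides. Foxd1 is at chr13:98353995-98354294 on the + strand, Foxd2 at chr4:114908849-114909148 on the - strand, and Foxc1 at chr13:31806396-31806695 on the + strand.
Foxd1: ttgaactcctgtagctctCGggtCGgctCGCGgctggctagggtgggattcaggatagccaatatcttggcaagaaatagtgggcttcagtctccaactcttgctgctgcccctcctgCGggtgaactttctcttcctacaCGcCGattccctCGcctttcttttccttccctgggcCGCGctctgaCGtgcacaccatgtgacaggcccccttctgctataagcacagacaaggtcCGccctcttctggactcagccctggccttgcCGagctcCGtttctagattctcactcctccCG
Foxd2: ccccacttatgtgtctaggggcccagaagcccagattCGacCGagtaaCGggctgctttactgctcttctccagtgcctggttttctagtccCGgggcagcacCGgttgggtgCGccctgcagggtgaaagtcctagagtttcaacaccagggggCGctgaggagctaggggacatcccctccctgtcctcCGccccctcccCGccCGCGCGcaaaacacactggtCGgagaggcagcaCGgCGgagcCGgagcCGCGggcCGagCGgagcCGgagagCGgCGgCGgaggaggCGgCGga
Foxc1: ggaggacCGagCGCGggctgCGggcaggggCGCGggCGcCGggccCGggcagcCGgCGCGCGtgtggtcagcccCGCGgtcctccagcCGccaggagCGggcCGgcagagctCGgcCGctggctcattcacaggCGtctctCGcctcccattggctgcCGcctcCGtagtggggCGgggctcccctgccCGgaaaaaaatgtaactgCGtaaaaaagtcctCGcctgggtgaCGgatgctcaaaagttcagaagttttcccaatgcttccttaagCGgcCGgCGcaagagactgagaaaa
The windows held 15, 26 and 32 CpG in that order, against a median of 7 over all 32851 promoters of the same length. Forkhead promoters as a group were rich in G and C, with a median of 62.7% over all 33 forkhead windows against 52.7% over all promoters. Over the 19 windows matched to measured forkhead genes the medians were 65.7% G and C and 26 CpG. In all, 28 of the 44 genes matched a promoter entry, Foxf1 and Foxp2 not among them. Neither the OSR motif ACAGTAGC, the GLI motif GACCACCCA, nor the forkhead motif TGTTTAC was found on either strand of the 3 printed windows. These motifs were present in 0.898%, 0.253% and 3.65% of all promoters. Among all 33 forkhead windows, the OSR letters occurred in that of Foxb2 and the forkhead letters in that of Foxa1. The TATA box letters TATAAA were found in windows of Foxa2, Foxa3 and Foxp3, and in 13.6% of all promoters. A match, or its lack, describes these letters in this window alone.

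The targeted gene was measured first. Osr1 had 18.4 FPKM (fragments per kilobase of transcript, scaled to the mapped fragments of the library) in the mutant and 56.8 FPKM in the control library, a ratio of 0.325 (0.30 to 0.351). Depth was estimated at about 23200000 mapped reads for the mutant and 18900000 for the control library, and 3 reads on a 1 kb transcript corresponded to 0.129 FPKM in the mutant and 0.159 FPKM in the control library. Xist, expressed from the inactive X chromosome, had a ratio of 1.41. On the Y chromosome, Kdm5d had a ratio of 0.735, Ddx3y of 0.758, Eif2s3y of 0.871 and Uty of 0.899. Sex-linked levels of the pools thus differed, and the part of this in the forkhead values was not tested. Across all 12178 measured genes, those with a mean of at least 1 FPKM over both libraries, the median ratio was 1.002.

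Of the 44 forkhead genes, 26 were measured, a share of 59.1% beside 55.2% of all symbols. The most abundant were Foxf2, Foxp4 and Foxd1, which together held 35.3% of the summed forkhead FPKM in the mutant and 37.6% in the control library. The 44 genes summed to 423.3 FPKM in the mutant and 441.8 FPKM in the control library. Of the 26 measured genes, 12 had a higher and 14 a lower value in the mutant library, and their median ratio was 0.997. By ratio above 1, 51.1% of all measured genes were higher, and by ratio below 1, 48.9% were lower. The family as a whole was thus centred where all genes were.

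**Figure D1:**
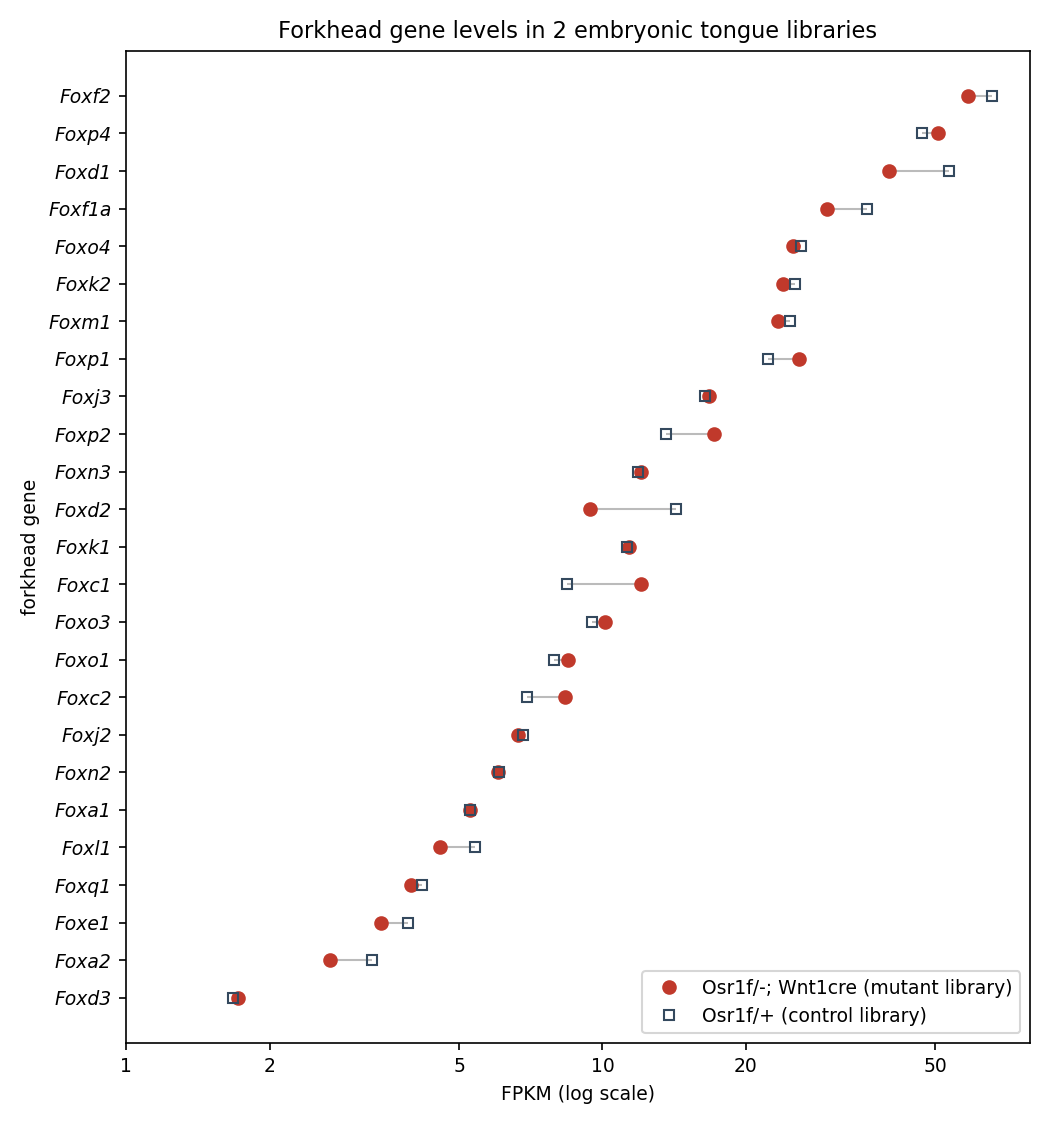
Level of 25 of the 26 measured forkhead genes in FPKM on a log axis, ordered by the mean, with a filled circle for the mutant and an open square for the control library. Foxf2 had the highest and Foxd3 the lowest mean, and among the genes drawn the widest gaps between symbols were those of Foxd2 and Foxc1.

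Single members lay apart from that centre. At least 1.3-fold higher in the mutant library were 2 of 26, Foxc1 among them, beside 3.88% of all measured genes, and at least 1.3-fold lower were 2 of 26 (Foxd1 and Foxd2), beside 2.64%. The absolute log2 ratio had a median of 0.10 over the forkhead genes and of 0.08 over all measured genes. The counting interval left out 1 for 13 of 26 forkhead genes, 6 above and 7 below, where 10.7% of all measured genes lay above and 10.2% below, 20.9% in either direction. Forkhead genes had somewhat more reads, with medians of about 753 in the mutant and 676 in the control library. Over all measured genes the medians were 668 in the mutant and 543 in the control library. More reads give narrower intervals, and the part of this in the count of 13 was not tested. In either direction, 4 of 26 were past 1.3-fold, beside 6.52% of all measured genes. Past 1.5-fold, 1 of 26 was higher, beside 1.53% of all measured genes, and 1 lower (Foxd2), beside 1.02%, with 2.55% of all measured genes in either direction. Over the 20 forkhead genes with a mean of at least 5 FPKM, 1 was at least 1.3-fold higher beside 1.36% of all such genes, and 2 were lower beside 0.806%. The interval left out 1 for 11 of these 20 genes, beside 22.2% of all such genes.

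**Figure D2:**
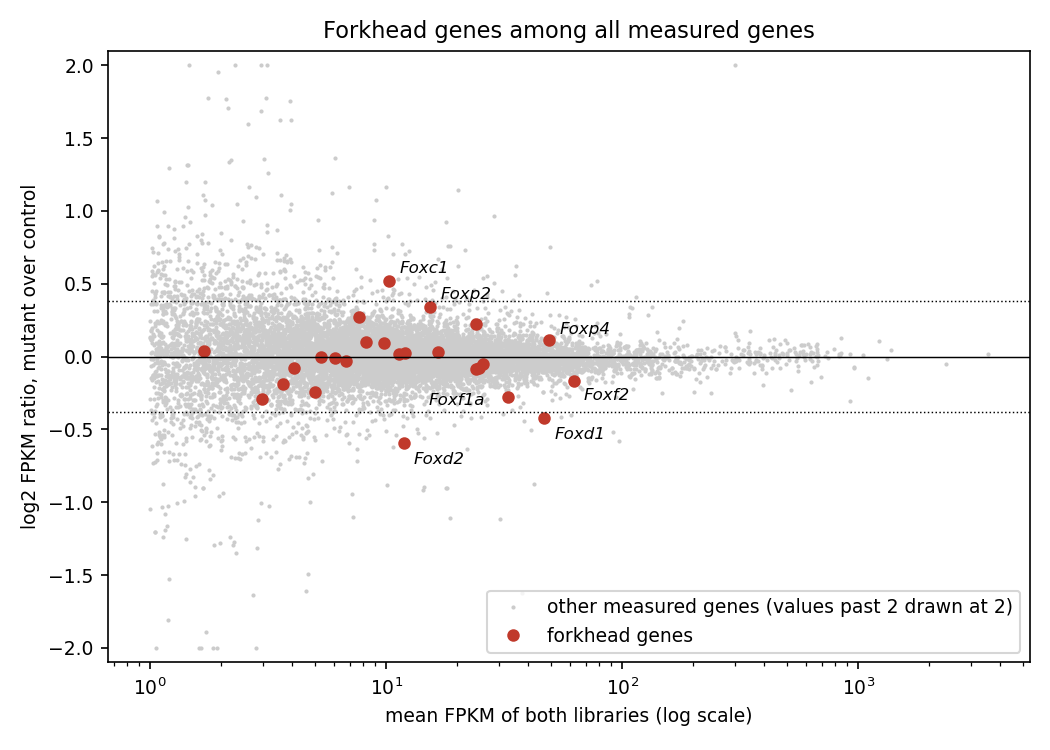
Log2 FPKM ratio, mutant over control, against the mean FPKM of both libraries on a log axis, with 25 forkhead genes in red and the genes outside the family in grey; dotted lines mark 1.3-fold. Foxc1 lies above the upper line, and Foxd1 and Foxd2 below the lower line.

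FoxD genes were lower in the mutant library through both of their abundant members. Foxd1 (NM_008242, mm9 chromosome 13, 99124200 to 99126660), a regulator of mesenchyme and of kidney stroma, had 39.9 FPKM in the mutant and 53.5 FPKM in the control library. Its ratio was 0.747 (0.705 to 0.791), from about 2278 reads in the mutant and 2491 in the control library. Foxd2 (NM_008593, mm9 chromosome 4, 114578885 to 114581503), its close relative in facial mesenchyme, had 9.43 FPKM in the mutant and 14.3 FPKM in the control library. The ratio of 0.661 (0.591 to 0.740) was the lowest of the 26. Foxd1 was the more abundant of the pair in both libraries, 4.24 times the level of Foxd2 in the mutant and 3.75 times in the control. Foxd3, which marks early neural crest and glial precursors, was low, with 1.72 FPKM in the mutant and 1.67 FPKM in the control library, a ratio of 1.03 (0.747 to 1.4). Schwann lineage markers, with a median ratio of 0.874 over 7 measured genes, summed to 82.1 FPKM in the mutant and 94.4 FPKM in the control library, none of the 12 at 0 in both. Their part in the Foxd3 value was not tested. Foxd4 rested on 1 read in the mutant and none in the control library, too few to compare. Summed over its 4 genes, FoxD had 51.1 FPKM in the mutant and 69.4 FPKM in the control library; no other subfamily was lower by as many FPKM.

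FoxC genes went the other way. Foxc1 (NM_008592, mm9 chromosome 13, 31898515 to 31902504), needed in mouse for skull, eye and cartilage formation, had 12.1 FPKM in the mutant and 8.43 FPKM in the control library, a ratio of 1.43 (1.3 to 1.58). Foxc2 (NM_013519, mm9 chromosome 8, 123640071 to 123642794), which acts in mesenchyme and in lymphatic vessels, had 8.37 FPKM in the mutant and 6.94 FPKM in the control library. Its ratio of 1.21 (1.05 to 1.38) had a counting interval above 1 and lay under 1.3-fold. Cartilage markers were higher beside them: 13 of 13 measured genes had ratios above 1, beside 51.1% of all measured genes. Past 1.3-fold higher were 10 of them, beside 3.88%. Their median ratio was 1.43, with sums of 329 FPKM in the mutant and 240 FPKM in the control library. Sox9, the regulator of chondrocyte fate, had 23.1 FPKM in the mutant and 13.6 FPKM in the control library, and Col9a1, a cartilage fibril collagen, had 42.8 FPKM in the mutant and 27.8 FPKM in the control library. Matn4 and Col9a3 (both overlapped by another gene model) had ratios of 1.63 and 1.45. All 13 counting intervals lay above 1, beside 10.7% of all measured genes, and the part of cartilage in the FoxC values was not tested. Endothelial markers had a median ratio of 1.02 over 17 genes, none past 1.3-fold, with sums of 131.7 FPKM in the mutant and 126.9 FPKM in the control library. The largest ratio in that list was 1.27 for Erg, followed by 1.24 for Pecam1, and the ratios of Kdr and Sox18 were 0.911 and 0.885.

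FoxF genes, mesenchymal regulators that hedgehog signals are known to induce, were slightly lower. Foxf2 (NM_010225, mm9 chromosome 13, 31717685 to 31723275), which is required in mouse for a normal palate and tongue, had 58.6 FPKM in the mutant and 65.7 FPKM in the control library. Its ratio was 0.891 (0.847 to 0.937). Foxf1a (NM_010426, mm9 chromosome 8, 123608374 to 123610779), now named Foxf1, had 29.7 FPKM in the mutant and 35.9 FPKM in the control library, a ratio of 0.827 (0.745 to 0.918). Both intervals lay below 1, and neither gene reached 1.3-fold. The Foxf1a row is a model of 1062 nt, so its level rests on a shorter stretch than the 2366 nt of Foxf2.

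**Figure D3:**
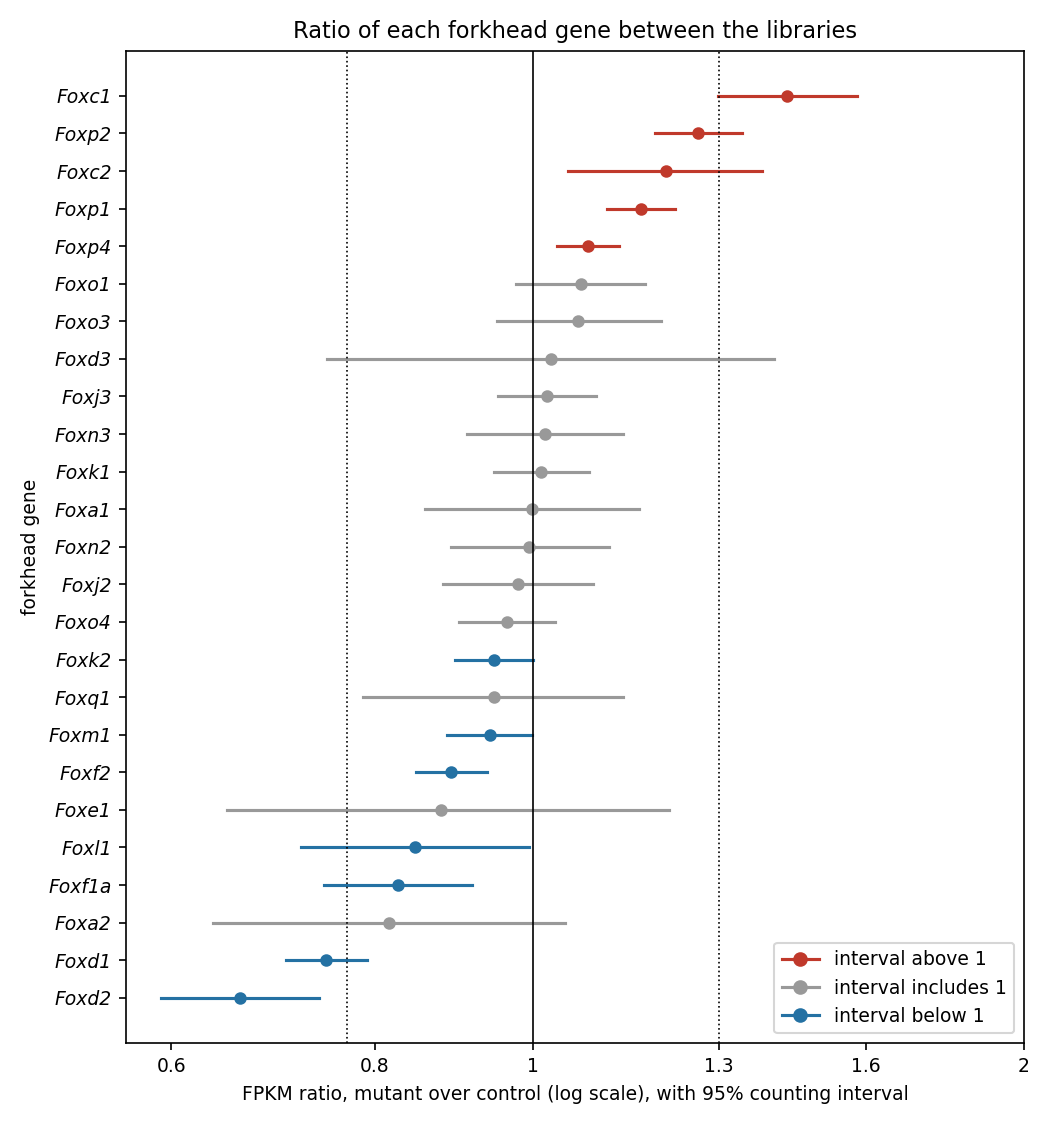
FPKM ratio, mutant over control, of 25 of the 26 measured forkhead genes on a log axis, with bars for the 95% counting interval and dotted lines at 1.3-fold higher and lower. Intervals of 5 drawn genes lie above 1 (red), those of 7 below 1 (blue), and 13 include 1 (grey).

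Hedgehog pathway genes were measured beside the FoxF and FoxD genes. Of 16 genes, 10 had ratios below 1, beside 48.9% of all measured genes, and 6 above. The median ratio was 0.977. Past 1.3-fold lower were 2 of the 16, Shh among them, beside 2.64% of all measured genes, and none was past 1.3-fold higher. The ligand Shh had 5.04 FPKM in the mutant and 6.65 FPKM in the control library, a ratio of 0.757 (0.646 to 0.884). The target gene Gli1 had a ratio of 0.777 (0.736 to 0.821), while the coreceptor Boc had 1.29 (1.2 to 1.38). Both Gli1 and Shh are overlapped by another gene model, and so is Boc. Ptch1, the main receptor and a hedgehog target, had 38.6 FPKM in the mutant and 39.8 FPKM in the control library, with an interval that included 1 (0.925 to 1.02). Pathway members thus differed among themselves in direction. Cranial mesenchyme markers also split, with 10 higher and 7 lower of 17 and a median ratio of 1.04. Among members of that list with a mean of at least 5 FPKM, Tbx2, Hand1, Osr1 and Osr2 differed most, and Tbx2 had a ratio of 1.71, Hand1 of 0.758 and Osr2 of 1.27. The list summed to 441.7 FPKM in the mutant and 459.9 FPKM in the control library. Osr1, the targeted gene, is in these sums and among the 7 lower genes. It had 18.4 FPKM in the mutant and 56.8 FPKM in the control library, a larger gap than that of the sums.

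The FoxC and FoxF genes lie in 2 chromosomal clusters in which neighbours differed in opposite directions. On mm9 chromosome 13, Foxq1, Foxf2 and Foxc1 follow each other with gaps of 64.8 and 175.2 kb, and their ratios were 0.946 (0.787 to 1.14), 0.891 and 1.43. On mm9 chromosome 8, Foxf1a, Foxc2 and Foxl1 follow each other with gaps of 29.3 and 8.79 kb, and their ratios were 0.827, 1.21 and 0.846. Foxl1, a mesenchymal gene known from the gut wall, had 4.57 FPKM in the mutant and 5.39 FPKM in the control library, and its interval of 0.720 to 0.995 only just left out 1. In each cluster the FoxC gene was higher and the other 2 genes had lower values in the mutant library, although the Foxq1 interval included 1. Foxd2 has a forkhead neighbour too: Foxe3, 16.2 kb away on mm9 chromosome 4, with about 1 read in each library.

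**Figure D4:**
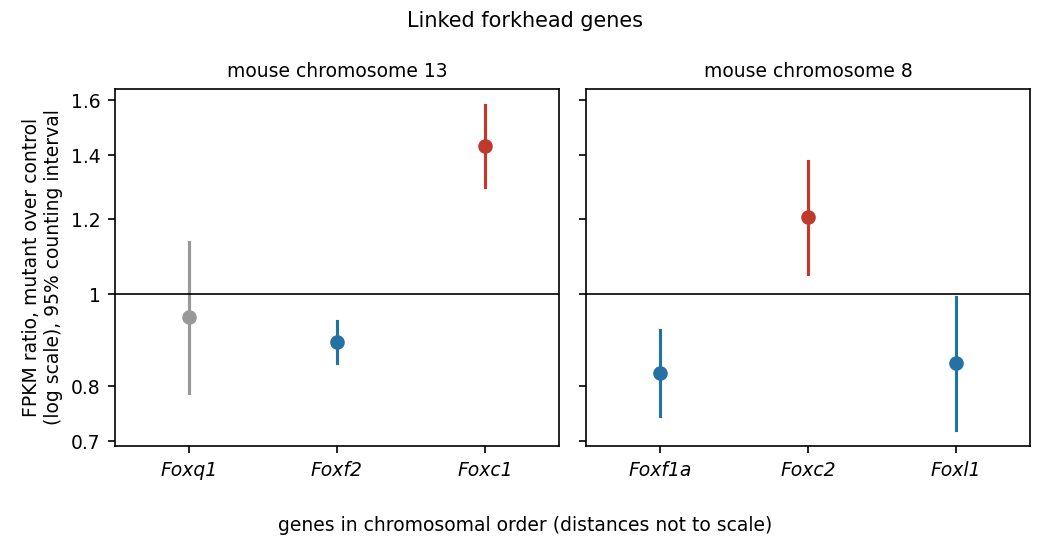
FPKM ratio, mutant over control, of linked forkhead genes in chromosomal order, with 95% counting intervals on a log axis. Foxc1 (1.43) and Foxc2 (1.21) lie above 1, and their neighbours have lower values, with an interval that includes 1 for Foxq1.

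FoxP genes were higher in the mutant library for all 3 measured members. Each had a counting interval above 1 and, summed over its rows, differed by less than 1.3-fold. Foxp2, known for its role in neural circuits and in foregut and facial development, had 17.2 FPKM in the mutant and 13.6 FPKM in the control library, a ratio of 1.26 (1.19 to 1.34). Foxp1, its partner in dimers, had 25.9 FPKM in the mutant and 22.3 FPKM in the control library, a ratio of 1.17 (1.11 to 1.22), and Foxp4, the most abundant, had 50.7 FPKM in the mutant and 46.9 FPKM in the control library, a ratio of 1.08 (1.03 to 1.13). Together with Foxp3 these genes summed to 93.8 FPKM in the mutant and 82.8 FPKM in the control library; no other subfamily was higher by as many FPKM. Foxp3, the regulator of regulatory T cells, was near 0, with about 2 reads in each library.

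Several FoxP genes have more than 1 transcript row, and the authors' tool split reads among them by estimation. Foxp1 was mostly the row NM_001197322, which starts within the gene, at 80.1% of the gene's FPKM in the mutant and 78.6% in the control library. The long row NM_053202 held 19.9% in the mutant and 19.8% in the control library, so the make-up was nearly the same in both. The row NM_001197321 held 0.376 FPKM, about 50 reads, in the control and about 0 reads in the mutant library. Foxp2 was split between NM_053242, with 9.56 FPKM in the mutant and 6.99 FPKM in the control library, and NM_212435, with 7.59 FPKM in the mutant and 6.58 FPKM in the control library. The row ratios were 1.37 for NM_053242, past 1.3-fold, and 1.15 for NM_212435, both above 1. In Foxp4, NM_001110825 and NM_001110824 had ratios of 1.18 and 1.2, while NM_028767 had 16.0 FPKM in the mutant and 17.5 FPKM in the control library, a ratio of 0.915. The Foxp4 rows differ in length by at most 39 nt, so the split among them is uncertain.

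Forkhead genes of epithelium and endoderm showed no ratio past 1.3-fold. Foxa1, a pioneer factor of endoderm, had 5.28 FPKM in both libraries (ratio 0.999, 0.859 to 1.16). Foxa2, its relative in foregut endoderm, had 2.68 FPKM in the mutant and 3.29 FPKM in the control library, with an interval of 0.637 to 1.05. Foxe1, a gene of thyroid and oral epithelium required for palate closure, had 3.42 FPKM in the mutant and 3.90 FPKM in the control library (0.649 to 1.21), on a model of 1116 nt. Foxq1, known from hair and stomach lining, had 3.96 FPKM in the mutant and 4.18 FPKM in the control library. All 4 intervals included 1, and with the width of the Foxe1 interval a difference of about the size seen for Foxd1 would not be detectable at this depth. Epithelial markers had a median ratio of 0.928, with 16 of 20 lower, beside 48.9% of all measured genes. Only 1 was past 1.3-fold, with a higher value in the mutant library and a mean under 5 FPKM, beside 3.88% of all measured genes. The list summed to 198 FPKM in the mutant and 221 FPKM in the control library. Krt5, Krt14 and Krt15, keratins of the basal layer, had ratios of 0.796, 0.848 and 0.853. Markers of pharyngeal endoderm and thyroid had a median ratio of 0.977 over 7 measured genes, with 3 higher and 4 lower and sums of 34.3 FPKM in the mutant and 36.3 FPKM in the control library. Nkx2-5, a homeobox gene of pharyngeal arch and heart cells, had a ratio of 0.746, Pax9, of oral and pharyngeal tissue, 0.977 and Sox2 (overlapped by another model) 0.972. The part of these markers in the forkhead values was not tested.

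FoxO factors, which insulin and growth factor signals keep out of the nucleus, were close between the libraries. Foxo4, the X-linked member and the most abundant of them, had 25.2 FPKM in the mutant and 26.1 FPKM in the control library (ratio 0.965, 0.901 to 1.03). Foxo3 had 10.1 FPKM in the mutant and 9.49 FPKM in the control library (0.95 to 1.2), and Foxo1 had 8.46 FPKM in the mutant and 7.91 FPKM in the control library (0.977 to 1.17). All 3 intervals included 1, and they left out differences of 1.3-fold in either direction. Foxo6 lay under 1 FPKM, at 0.746 FPKM in the mutant and 0.555 FPKM in the control library. Of 26 measured FoxO regulators and targets, 18 were higher, beside 51.1% of all measured genes, and 8 lower, with a median ratio of 1.02. Past 1.3-fold was 1 of them, beside 6.52% of all measured genes. The kinase gene Sgk1 had 7.18 FPKM in the mutant and 5.50 FPKM in the control library, and Txnip, a thioredoxin inhibitor, had 36.2 FPKM in the mutant and 29.5 FPKM in the control library. Sesn3 and Pink1 had ratios of 1.19 and 1.18.

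Foxm1, the activator of mitotic genes, had 23.4 FPKM in the mutant and 24.8 FPKM in the control library, a ratio of 0.941 (0.886 to 0.998), and another gene model overlaps it. Of 22 mitotic genes that FoxM1 is known to activate, 20 had lower values in the mutant library and 2 higher. Of all measured genes, 48.9% were lower. None of the 22 was past 1.3-fold, and their median ratio was 0.913. Intervals of 13 of these genes lay below 1, beside 10.2% of all measured genes, and none above, beside 10.7%. Bub1, of the spindle checkpoint, had 18.7 FPKM in the mutant and 22.3 FPKM in the control library, a ratio of 0.838 (0.786 to 0.895). Aurkb and Nek2, mitotic kinases, had ratios of 0.870 and 0.873, and Cks1b, a subunit of cyclin kinases, had 0.881. The list summed to 843 FPKM in the mutant and 908 FPKM in the control library, and the part of Foxm1 in these values was not tested.

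FoxK, FoxJ and FoxN genes were close between the libraries. Foxk2, a repressor of starvation-induced genes, had 24.0 FPKM in the mutant and 25.4 FPKM in the control library, and its interval of 0.896 to 0.9997 ended at 1. Foxk1, first described in muscle progenitors, had 11.4 FPKM in the mutant and 11.2 FPKM in the control library (ratio 1.01, 0.947 to 1.08). Muscle markers had a median ratio of 0.973, with 6 higher and 10 lower of 16 and sums of 768 FPKM in the mutant and 745 FPKM in the control library. Eya1, a coactivator in muscle precursors, had a ratio of 1.52, Chrna1, an acetylcholine receptor subunit, 1.16, Myh8, a perinatal myosin, 0.877 and Lbx1, of migrating precursors, 0.798. Foxj3, which acts in muscle and other tissues, had 16.7 FPKM in the mutant and 16.4 FPKM in the control library (0.952 to 1.09), and Foxj2 had 6.66 FPKM in the mutant and 6.80 FPKM in the control library (0.880 to 1.09). Foxn3, first found as a checkpoint suppressor in yeast, had 12.1 FPKM in the mutant and 11.9 FPKM in the control library (0.911 to 1.14), and Foxn2 had 6.03 FPKM in the mutant and 6.06 FPKM in the control library (0.891 to 1.11). For these 4 genes the interval included 1 and left out a 1.3-fold difference.

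**Figure D5:**
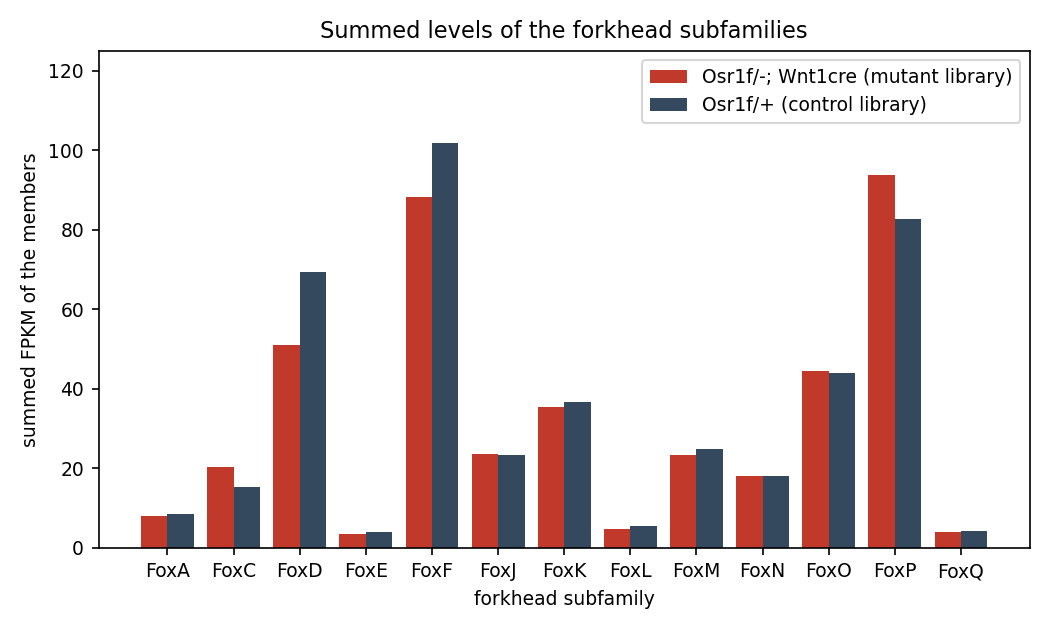
Summed FPKM of 13 forkhead subfamilies with a measured member, mutant library in red and control library in dark blue. FoxP was the highest sum in the mutant library (93.8 FPKM) and FoxF in the control library (101.7 FPKM).

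The order of the subfamilies by summed FPKM differed between the libraries at the top. FoxP led in the mutant library with 22.2% of the forkhead sum, followed by FoxF with 20.9%, whereas FoxF led in the control library with 23.0% before FoxP with 18.7%. FoxD held 12.1% in the mutant and 15.7% in the control library, and FoxC held 4.83% in the mutant and 3.48% in the control library. FoxF summed to 88.3 FPKM in the mutant library, against 101.7 FPKM in the control library. FoxO, FoxK, FoxJ and FoxN sums lay between ratios of 0.966 and 1.01. Paralogs had the same order of abundance in both libraries in every pair compared, those of FoxA, FoxC, FoxD, FoxF, FoxJ, FoxK, FoxN, FoxO1 with FoxO3, and Foxp1 with Foxp2 or Foxp4. Foxf1a stood at 0.507 of the level of Foxf2 in the mutant and 0.547 in the control library, and Foxc1 at 1.44 times the level of Foxc2 in the mutant and 1.21 times in the control.

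Forkhead corepressors and partners were measured beside these genes. Of 14 measured, 3 were higher and 11 lower, where 48.9% of all measured genes were lower. The median ratio was 0.978, and none was past 1.3-fold, beside 6.52% of all measured genes. The counting interval lay above 1 for 2 of them, beside 10.7% of all measured genes, and below 1 for 2, beside 10.2%. Smad3, which binds several forkhead factors, had a ratio of 1.19 and Tle1, a Groucho corepressor, 1.14. Smad2 and the deacetylase gene Hdac2 had 0.935 and 0.960.

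The other 18 forkhead genes were below the threshold of 1 FPKM. The highest was Foxr1, with 0.801 FPKM in the mutant and 0.959 FPKM in the control library. Foxh1, Foxi1 and Foxi2 were at 0 in both libraries, and 11 of the 18 had fewer than 3 reads in each. Foxj1, the regulator of motile cilia, had 0.300 FPKM in the mutant and 0.223 FPKM in the control library, from about 18 reads in the mutant and 11 in the control library, and its interval ran from 0.598 to 3.13. Of 18 ciliary genes of its programme with a row, 7 were measured, with 4 higher and 3 lower. Past 1.3-fold was 1 of the 7, Rsph9, of the radial spoke, beside 6.52% of all measured genes. Rsph9 had 2.5 FPKM in the mutant and 1.53 FPKM in the control library, with an interval of 1.03 to 2.74. Spag6 was at 0 in both libraries, and Rfx3, a ciliary transcription factor, had 5.02 FPKM in the mutant and 5.28 FPKM in the control library. Foxs1, a gene of pericytes and sensory neurons, and the neural tube genes Foxb1 and Foxb2 stood on 3 to 8 reads in each library. Foxl2, an ovary gene, had 6 reads in the mutant and 1 read in the control library, a ratio of 3.78 with an interval of 0.594 to 225. None of the 18 forkhead genes below 1 FPKM separated the libraries beyond counting error.

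Of the 44 forkhead models, 13 had a single exon, a share of 29.5% beside 13.6% of all symbols. Among the 26 measured genes, 8 were of this kind, namely Foxc1, Foxc2, Foxd1, Foxd2, Foxd3, Foxe1, Foxl1 and Foxq1. Of the 4 measured genes past 1.3-fold, Foxc1, Foxd1 and Foxd2 were single-exon models, and 1 was not counted as such. Only genes with 1 transcript row could be counted as single-exon. The share of such models among all measured genes past 1.3-fold was not computed. A link between exon number and ratio was not tested.

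Neuronal, blood and macrophage markers describe the remaining make-up of the 2 libraries. Neuronal markers had a median ratio of 0.812, with 6 of 10 lower, beside 48.9% of all measured genes. None of the 14 listed was at 0 in both libraries, and the list summed to 52.5 FPKM in the mutant and 62.8 FPKM in the control library. Crmp1 and Gap43, genes of growing axons, had ratios of 0.713 and 0.809, while Dcx, of young neurons, had 1.32 and Nefm, a neurofilament gene, had 1.10. Erythroid genes had a median ratio of 0.841, lower for 7 of 7 measured, beside 48.9% of all measured genes. These genes summed to 1197 FPKM in the mutant and 1452 FPKM in the control library. Hbb-y, Hba-x, Hbb-bh1 and Hbb-b1, globin genes, had ratios of 0.810, 0.841, 0.796 and 0.902, and Hbb-b1 is overlapped by its near-identical copy Hbb-b2. Macrophage genes had a median ratio of 1.05, with 5 of 7 higher, beside 51.1% of all measured genes. Their sums were 26.0 FPKM in the mutant and 23.9 FPKM in the control library. Laptm5 among them had a ratio of 1.02. The part of these cells in the forkhead values was not tested. In the Schwann list, Ngfr, Pmp22 and Erbb3 had ratios of 0.849, 0.930 and 0.957.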

How the data were processed

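Per the submitters' processing notes, reads were processed with TopHat 1.4.1 and Bowtie 0.12.7 on mouse build mm9. The deposited tables hold FPKM for each RefSeq transcript in a Cufflinks isoform layout, per the file headers, and a coverage signal that the authors left unscaled for depth. Strand setting, read length and Cufflinks version: not given in the sources used here. The cDNA was made with an amplifying kit, per the labels' protocols.

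Rows of a symbol were summed, and a gene was measured at a mean of at least 1 FPKM with status OK in all rows. At any level, 204 symbols had a row with another status, none a forkhead gene. Without the status filter, 12270 genes were measured, against 12178 with it. Ratios are of FPKM without a pseudocount. Coverage times length clustered at 47.2 bases for 1 read, which gave approximate reads and a mutant library 1.22 times deeper. Intervals are exact conditional (Clopper-Pearson) at 95%, in Python 3.11.15 with SciPy 1.17.1. They were tested on simulated independent counts, which the interval assumes, so that test cannot speak for amplified cDNA. Intervals and the floor of 3 reads cover counting error alone. Reads of amplified cDNA are not independent molecules, so intervals may be too narrow even for that error. Rows of a gene with several transcripts had their interval centred on the FPKM ratio.

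The members and the gene lists were chosen with earlier results of these data known. Named were all measured forkhead genes, and up to 4 genes of each list with the largest ratios at a mean of at least 5 FPKM. Ptch1, Rsph9 and forkhead genes under 1 FPKM with few reads were named after their values were seen. Some genes that the rule names, 1 forkhead gene among them, are not reported here and were left out of the figures but not of the counts. Protein sequences, which the naming rule also foresaw, were not used here. Coordinates of genes are mm9 as in the files, counted from 1, and those of promoters are GRCm38.p6.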

Additional observations from a re-analysis of the deposited data

How the results depend on the processing

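The counts of forkhead genes past 1.3-fold, the median log2 ratios of the family and of each list, and the ratios of the measured forkhead genes, Osr1 and Osr2 were recomputed with a pseudocount of 1 or 0.1 FPKM, on the TPM scale, with the median of all genes set to 0, after quantile normalization, without the status filter, and without overlapping gene models. Under these alternatives 2 forkhead genes stayed past 1.3-fold in each direction, and no forkhead gene past 1.3-fold changed direction. Foxa1 alone among forkhead genes changed sign, to a log2 ratio of 0.0020 on the TPM scale, within counting error. The family median log2 ratio ran from -0.022 to 0.0075 over 10 alternatives.

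Over genes of at least 5 FPKM, 1 forkhead gene was higher, and with no filter on low values 9 were higher and 5 lower. At 1.5-fold, 1 was higher and 1 lower, and by counting interval 6 were higher and 7 lower. With no filter, the median log2 ratio was 0.38 for pharyngeal endoderm and thyroid and -0.42 for the Schwann lineage, where more genes entered, and over genes of at least 5 FPKM it was 0.021 for neurons, where 5 of the 10 genes were left. Taking the longest row in place of the sum gave log2 ratios of 0.45 for Foxp2, which is then past 1.3-fold higher, and 0.26 for Foxp4, which is not. List counts, list genes other than Osr1 and Osr2, and subfamily sums were not recomputed. No paired analysis was possible because each genotype has 1 library.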
